A study of Mus musculus with 15 samples.

Results

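The B cell receptor signalling genes are a set of 33 genes that encode the signal chains of the B cell antigen receptor, its coreceptors and the kinases, phosphatases, adaptors and calcium channels behind it. All 33 symbols were rows of the deposited expression table of 23420 genes, and 32 of them were above 0 in at least 3 of the 15 libraries, as were 11190 genes in all. Vav2, an exchange factor for small GTPases, was above 0 in 2 libraries only and was not tested. The receptor's immunoglobulin chains were not analysed here.

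RNA was measured in 3 libraries per group, each from 100 sorted cells of mouse lymph nodes on day 12 after immunization with the hapten conjugate NP-CGG in CFA. All cells descended from transferred CD45.1+ B cells with the B1-8hi (KI/+) knock-in receptor, which binds NP, in C57BL6 hosts. 4 groups came from donors that also carried Bcl6-YFP (KI/+), a reporter of the germinal centre repressor Bcl6. They were gated as B220+ CD38-low GL7-high germinal centre cells. The dark zone group (DZ) was CXCR4-high CD86-low, and the light zone groups were CXCR4-low CD86-high. CD69, an activation marker, and the reporter divided the latter: Fraction 3 was gated for high Bcl6 and low CD69, Fraction 2 for high levels of both, and Fraction 1 for low Bcl6 with high CD69. Germinal centre derived plasmablasts (GC-PB) were CD138-high CD44-high tdTomato+ cells of donors with S1pr2-ERT2cre and ROSA-Ai14 (KI/+). Their hosts received tamoxifen on days 6, 7 and 8, so that tdTomato marks cells in which the S1pr2 driven recombinase was active then. GC-PB thus differed from the other groups in donor genotype and tamoxifen as well as in cell type, and these cannot be told apart. The replicates are independent library preparations with no label for the animal of origin, so that the p-values reflect library-to-library spread that may be purely technical.

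The B cell receptor is a membrane immunoglobulin bound to the CD79A and CD79B chains. When antigen clusters it, the kinases LYN and SYK phosphorylate these chains, and SYK with the adaptor BLNK brings BTK and phospholipase C gamma 2 together to release calcium and to activate protein kinase C, RAS and NF-kB. Coreceptors of the CD22 and SIGLEC family recruit the phosphatase SHP-1 and damp the signal, while the complement receptor CD21 lowers its threshold. Germinal centre B cells are known for a damped receptor signal, and plasma cells replace the membrane form of the immunoglobulin largely by its secreted form.

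Levels below are deposited values brought to equal library totals, since the totals differed between groups, and gene positions are those of mm10 in GENCODE M21. The total was 30418 to 35660 in DZ, 27942 to 32274 in Fraction 3, 38283 to 41955 in Fraction 2, 107578 to 115088 in Fraction 1 and 65535 to 77163 in GC-PB. Most values were whole multiples of a constant of their library, and at equal totals this smallest step was worth 0.15 to 0.325, so that levels under 1 rest on a few steps. Of the 471 member values above 0, 464 were whole multiples within a tolerance of 0.02. A level is thus a share of its library's total, taken over all sorted cells. Fewer cells with a transcript, less transcript per cell and more of all other transcripts cannot be told apart by it. Changes are log2 fold changes ± SE of log2(value + 1), which understate those of low genes, with the Benjamini-Hochberg adjusted p of limma over all tested genes, and a gene is called at an adjusted p under 0.05. The change on the deposited scale follows where it is given.

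Xist, the transcript of the inactive X chromosome, was listed at 0 in every DZ, Fraction 3 and Fraction 2 library. The Fraction 1 libraries had 12.5, 14.8 and 16.8 and those of GC-PB 20.1, 15.4 and 18.2. The Y-linked Ddx3y was 7.24 ± 1.64 (SD, n = 3) in DZ, 7.63 ± 0.816 in Fraction 3 and 6.7 ± 1.08 in Fraction 2, whereas Fraction 1 averaged 0.0354 and GC-PB 0. This difference between libraries coincides with the step from Fraction 2 to Fraction 1, where it cannot be told apart from the gate, and with none of the other 3 comparisons. Of the genes behind the gates, Bcl6 was 21.7 ± 2.83 in Fraction 2, 5.55 ± 1.43 in Fraction 1 and listed at 0 in the plasmablasts, and Sdc1, which encodes CD138, was 19 ± 3.07 in GC-PB and at most 0.0547 on average elsewhere. Cd69, whose protein separates Fraction 2 from Fraction 3, was 2.22, 3.42 and 3.44 in Fraction 3 and 3.19, 5.47 and 3.51 in Fraction 2, with overlapping libraries, and had its highest mean in GC-PB (11 ± 9.87). Of other cells, the T cell genes Cd3e and Cd4 and the 4 NK cell markers were at 0 in all 15 libraries, the summed 8 myeloid markers reached 0.894 and the 6 stromal ones 0.275. The 7 T cell markers summed to 2.22 to 8.21 in the germinal centre groups, mostly Lck, and to 13.5 to 15.9 in GC-PB, where Cd28 was 13.8 ± 1.93.

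The promoters of 4 members with contrasting courses are shown as the sequence that leads into their transcripts. Cd22 and Cd72 were nearly absent in GC-PB, Blnk was higher there than in Fraction 1 at equal totals, and Fcrla was higher in GC-PB than in any other group. Each window runs from 250 bases before to 50 after the gene's start on the RefSeq annotation of GRCm38.p6, the assembly of mm10. All 4 lie on the minus strand and are written 5′ to 3′ along the gene: chr7:30878979-30879278 for Cd22, chr4:43454577-43454876 for Cd72, chr19:40994172-40994471 for Blnk and chr1:170927534-170927833 for Fcrla. The windows of Cd22 and Blnk, RefSeq starts included, lie wholly inside the spans that GENCODE gives these genes. Capitals mark the matches to the motifs named after the sequences, which for Cd72 and Blnk stand on the opposite strand and are printed as their reverse complements.
Cd22: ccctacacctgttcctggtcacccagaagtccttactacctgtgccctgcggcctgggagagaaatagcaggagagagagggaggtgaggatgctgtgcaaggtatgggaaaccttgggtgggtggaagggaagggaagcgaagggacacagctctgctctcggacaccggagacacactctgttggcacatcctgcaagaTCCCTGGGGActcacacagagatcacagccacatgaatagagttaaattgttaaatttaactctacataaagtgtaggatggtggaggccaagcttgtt
Cd72: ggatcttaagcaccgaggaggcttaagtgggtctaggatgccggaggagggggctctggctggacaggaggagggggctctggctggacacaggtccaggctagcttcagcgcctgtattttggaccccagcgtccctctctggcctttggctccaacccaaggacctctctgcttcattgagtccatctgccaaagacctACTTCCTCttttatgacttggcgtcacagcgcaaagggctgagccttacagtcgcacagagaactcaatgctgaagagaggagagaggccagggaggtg
Blnk: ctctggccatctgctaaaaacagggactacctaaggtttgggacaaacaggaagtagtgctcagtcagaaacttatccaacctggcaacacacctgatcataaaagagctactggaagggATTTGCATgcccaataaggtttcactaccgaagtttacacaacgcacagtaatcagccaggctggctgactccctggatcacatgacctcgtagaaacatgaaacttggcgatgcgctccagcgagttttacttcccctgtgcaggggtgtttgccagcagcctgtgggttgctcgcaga
Fcrla: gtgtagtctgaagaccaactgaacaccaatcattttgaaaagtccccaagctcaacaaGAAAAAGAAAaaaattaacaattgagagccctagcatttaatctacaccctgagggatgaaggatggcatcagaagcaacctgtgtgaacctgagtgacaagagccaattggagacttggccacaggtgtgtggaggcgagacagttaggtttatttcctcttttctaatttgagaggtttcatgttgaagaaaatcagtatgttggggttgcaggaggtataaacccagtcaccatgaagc
Both strands of the 28 member genes with a promoter in the table were searched for 5 motifs, which were chosen with the members' results known, and Cd79b, Lyn, Malt1, Nfatc1 and Itpr1 were not searched. The EBF palindrome (TCCC, 2 bases of any kind, GGGA) was found in Cd22 alone, against 0.904% of all 32851 promoters of this length. GAGGAAGT, a PU.1 motif, was in 6 member genes (Cd72, Fcrl1, Grb2, Inpp5d, Rasgrp3 and Vav1) and in 3.2% of all promoters. The octamer ATGCAAAT, which OCT1 and OCT2 bind, was in Blnk and Prkcb and in 1.74% of all. An interferon regulatory factor motif (GAAA, 2 bases of any kind, GAAA) was in Fcrla and in 3.44% of all. GAAAGTG, the core of the Blimp-1 motif, was in Vav2 alone and in 4.81% of all. None of the marked matches overlaps another of the 5 motifs, and a match describes the letters only.

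At equal totals the members' summed level had its highest mean in Fraction 3, whose libraries overlapped those of DZ. It was lowest in Fraction 1 and GC-PB, whose libraries overlapped, but single members took different courses in the plasmablasts. The highest group mean was in Fraction 3 for 19 of the 32 tested members, in DZ for 8, in GC-PB for 3 (Cd81, Fcrla and Blnk) and in Fraction 2 for 2, and the lowest was in GC-PB for 19, in Fraction 1 for 12 and in DZ for 1. The same count was not made over all tested genes, so that these numbers describe the members only. Summed over all 33 genes, the level was 514 ± 26.2 in DZ, 559.7 ± 28.8 in Fraction 3, 422 ± 12.4 in Fraction 2, 239 ± 19.9 in Fraction 1 and 232 ± 17.2 in GC-PB. As deposited, without equal totals, this order is different, with mean sums of 289, 299, 302, 470.1 and 281 in the same groups.

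**Figure D1:**
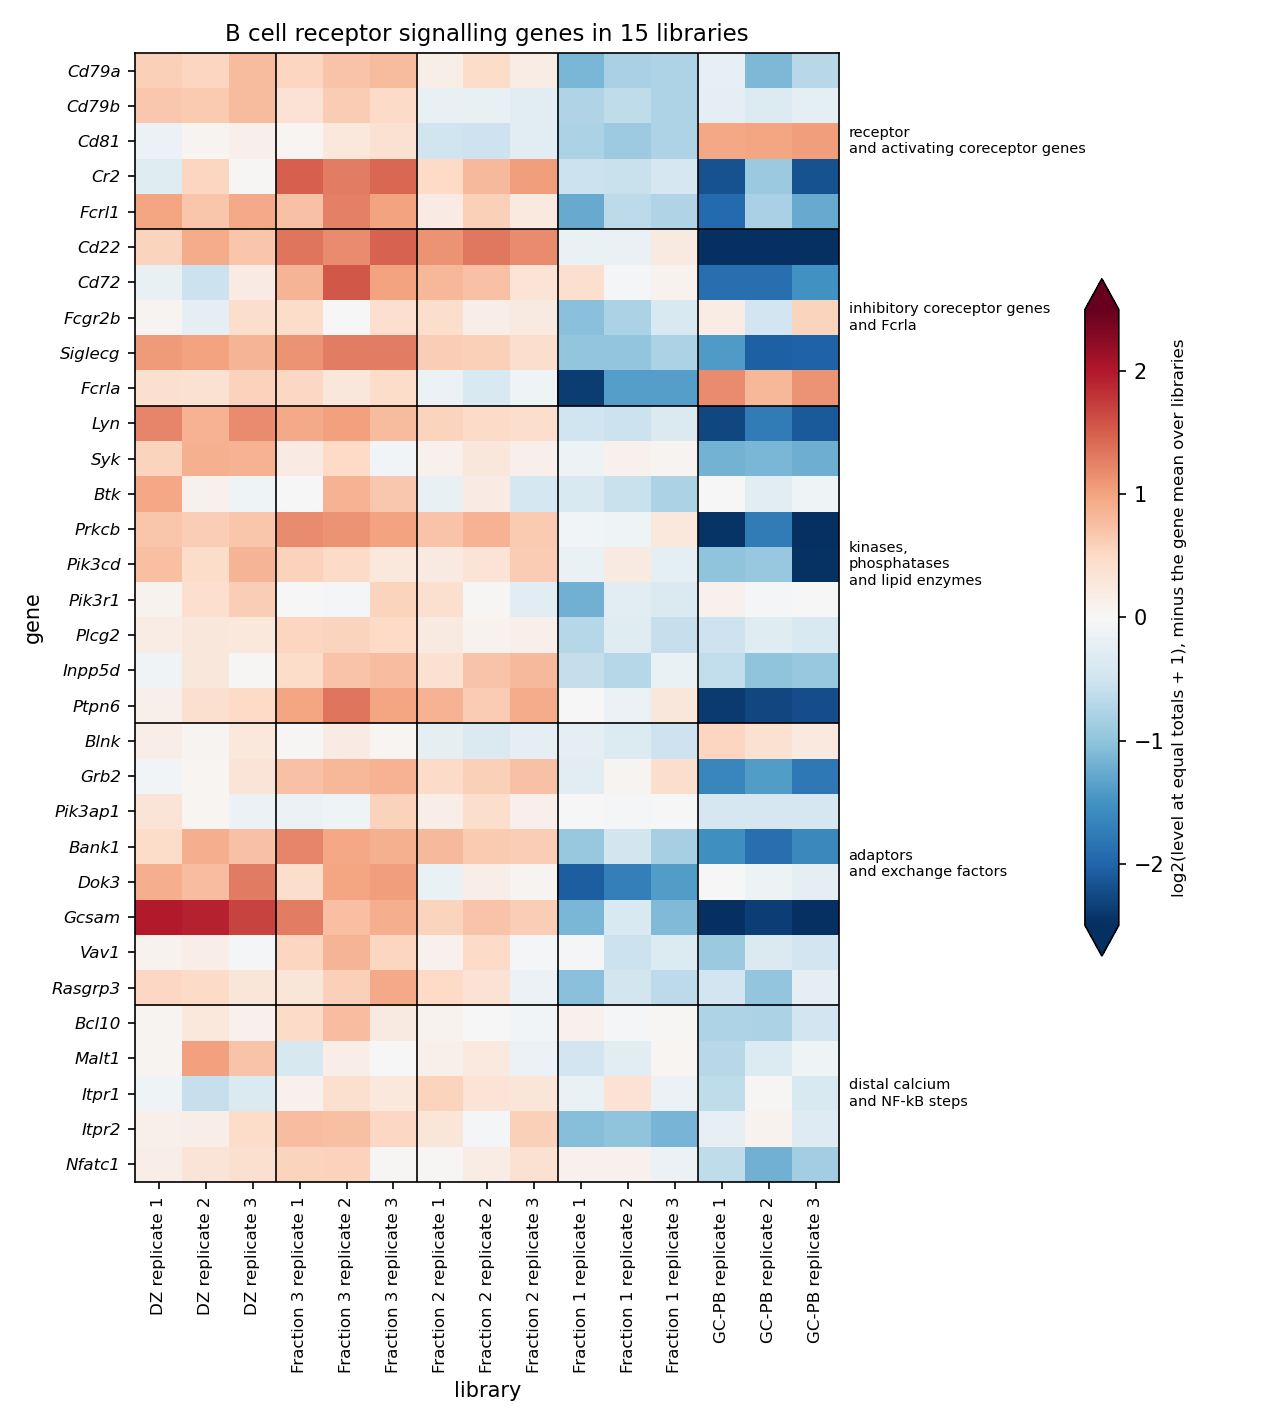
Each row is 1 of the 32 tested members, grouped by role, and each column 1 of the 15 libraries. Colour gives log2(level at equal totals + 1) minus the mean of that gene over the libraries, with the scale ending at 2.5 in both directions. The 9 DZ, Fraction 3 and Fraction 2 libraries are mostly above the gene means and the Fraction 1 libraries mostly below. In GC-PB Cd81, Fcrla and Blnk stand above, Cd22 is at the lower end of the scale, and Ptpn6, Prkcb and Gcsam stand far below their means.

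From DZ to Fraction 3, 4 of the 32 tested members rose and 1 fell, where 0.465% and 0.411% of all tested genes were called higher and lower. The median change of the members was 0.19, against 0.00 over all tested genes, and the libraries did not overlap for 12 members on the higher and 3 on the lower side, against 7.87% and 6.43% of all tested genes. None of the 5 calls held without each of the 6 libraries in turn, and without Fraction 3 replicate 2 all 5 were lost, with 0 higher and 0 lower. From Fraction 3 to Fraction 2, 0 members were called higher by limma (0 also at an unadjusted p under 0.05) and 2 lower (14 at an unadjusted p under 0.05), against 0.357% and 0.223% of all tested genes. Here 29 of 32 changes were below 0, with a median of -0.38 against 0.00, and the libraries did not overlap for 18 members on the lower and 0 on the higher side, against 8.38% and 8.59% of all tested genes. From Fraction 2 to Fraction 1, 18 members fell at equal totals and 0 rose (limma, 0 also at an unadjusted p under 0.05), against 5.18% and 3.4% of all tested genes, and 10 of the 18 have the other sign as deposited. The median change over all 32 was -0.70 against -0.05, and 23 members were lower and 0 higher without overlap, against 16.3% and 11.9% of all tested genes. From Fraction 1 to GC-PB, 14 members fell and 7 rose at equal totals, against 22.7% and 14% of all tested genes, with a median of -0.38 against -0.08. Without overlap 15 were lower and 8 higher, against 26.7% and 16.1%. The shares and medians of all tested genes, here and below, are not matched to the members for level. Low genes, whose changes are understated, count in them fully.

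The deposited scale gave other splits. There 0 members were called in Fraction 3 vs DZ (limma, 7 higher and 4 lower at an unadjusted p under 0.05), beside 0.116% higher and 0.125% lower of all tested genes, and 0 in Fraction 2 vs Fraction 3 (1 higher and 1 lower at an unadjusted p under 0.05), beside 2.67% and 0.0179%. In Fraction 1 vs Fraction 2, 13 members were called higher and 1 lower, beside 54.7% and 0.563% of all tested genes, and the members' median change was 0.43 against 0.64 for all tested genes. In GC-PB vs Fraction 1, 4 were called higher and 22 lower, beside 11.2% and 45.8% of all tested genes, with medians of -0.94 and -0.42. The median of all tested genes thus moved by 0.15, 0.64 and -0.42 between the last 3 pairs of groups as deposited. The members' median lay below it in each of these, by either scale. As deposited, a difference in library totals moves log2(value + 1) more for genes of higher level, so that these medians also depend on level.

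Of the receptor chains and activating coreceptors, 4 of 5 fell from Fraction 2 to Fraction 1 at equal totals, against 5.18% of all tested genes, and from there 2 rose and 1 fell in GC-PB, against 14% and 22.7%. Cd79a (chromosome 7, 24897381 to 24902197) encodes a signal chain whose cytoplasmic tail carries the activation motif that SYK docks to. Its level was 85.4, 82.8 and 98.1 in the DZ libraries, 82.8, 93.6 and 97.8 in Fraction 3, 62.7, 77.9 and 64.1 in Fraction 2, 25, 31.8 and 32.5 in Fraction 1 and 48.7, 25.3 and 34.6 in GC-PB. The DZ and Fraction 3 libraries lay above all others, Fraction 2 lay between, and the Fraction 1 and GC-PB libraries overlapped. Cd79a fell from Fraction 2 to Fraction 1 at equal totals (-1.17 ± 0.16, adjusted p = 9.08e-05, as deposited 0.25). In GC-PB Cd79a was not called at equal totals (0.24 ± 0.16, adjusted p = 0.29, as deposited -0.45), where it was called lower as deposited and higher with median ratios (0.52). Cd79b (chromosome 11, 106311341 to 106314762) encodes its partner chain. Its level was 83.1, 82.2 and 90.2 in the DZ libraries, 66.4, 81.2 and 72 in Fraction 3, 45.5, 45.2 and 42.3 in Fraction 2, 30.0, 32.8 and 29.7 in Fraction 1 and 44.2, 40.5 and 44.1 in GC-PB. Its GC-PB libraries lay above those of Fraction 1 and overlapped those of Fraction 2. Cd79b fell from Fraction 3 to Fraction 2 (-0.71 ± 0.10, adjusted p = 0.000994, as deposited -0.29) and again to Fraction 1 at equal totals (-0.51 ± 0.10, adjusted p = 0.00187, as deposited 0.91), where the deposited change has the other sign. It was higher in GC-PB than in Fraction 1 at equal totals (0.46 ± 0.10, adjusted p = 0.000611, as deposited -0.22), again with the other sign as deposited.

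Cd81 (chromosome 7, 143052739 to 143067934), a tetraspanin of the B cell surface, took a different course. Its level was 10.3, 12.1 and 12.7 in the DZ libraries, 11.9, 13.9 and 15.2 in Fraction 3, 7.89, 7.72 and 9.47 in Fraction 2, 6.24, 5.7 and 6.36 in Fraction 1 and 23.4, 23.6 and 24.8 in GC-PB. Every GC-PB library lay above every germinal centre library. Cd81 fell from Fraction 3 to Fraction 2 (-0.65 ± 0.14, adjusted p = 0.0325, as deposited -0.25), a call that was lost without any 1 of 5 of the 6 libraries, Fraction 3 replicate 1 excepted (-0.74 to -0.57). It rose from Fraction 1 to GC-PB on both scales (1.81 ± 0.14, adjusted p = 7.58e-10, as deposited 1.21). The annotation places exons of R74862 over those of Cd81, but R74862 was at most 0.412 on average in any group. Cr2 (chromosome 1, 195136811 to 195176716) encodes the complement receptor CD21. Its level was 2.68, 5.58 and 3.63 in the DZ libraries, 11.7, 10.02 and 11.3 in Fraction 3, 5.37, 6.92 and 8.4 in Fraction 2, 2.13, 2.1 and 2.4 in Fraction 1 and 0, 1.37 and 0 in GC-PB. All Fraction 3 libraries stood above all others. Cr2 rose from DZ to Fraction 3 (1.31 ± 0.28, adjusted p = 0.0216, as deposited 1.12), fell from Fraction 2 to Fraction 1 (-1.28 ± 0.28, adjusted p = 0.00534, as deposited -0.14) and fell further in GC-PB (-1.27 ± 0.28, adjusted p = 0.000962, as deposited -1.93). Fcrl1, an activating Fc receptor-like protein of B cells, ran from 1.13 (GC-PB) to 9.35 (Fraction 3) in group means and fell from Fraction 2 to Fraction 1 (-1.23 ± 0.25, adjusted p = 0.00301, as deposited -0.14).

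Of the 4 inhibitory receptor genes, Cd22, Cd72 and Siglecg fell in the plasmablasts to a few steps per library or none. The fourth, Fcgr2b, rose there from its low in Fraction 1 at equal totals but overlapped it, and Fcrla, whose product is no receptor of the surface, rose as well. Cd22 (chromosome 7, 30865402 to 30880342) encodes a sialic acid binding lectin that recruits SHP-1. Its level was 17.7, 23.1 and 19.6 in the DZ libraries, 31.1, 27.9 and 34.4 in Fraction 3, 26.7, 30.6 and 27.6 in Fraction 2, 10.3, 10.3 and 13.7 in Fraction 1 and 0.325, 0.825 and 0 in GC-PB. No Fraction 1 library reached a library of DZ, Fraction 3 or Fraction 2, and no GC-PB library reached 1. Cd22 fell from Fraction 2 to Fraction 1 at equal totals (-1.24 ± 0.18, adjusted p = 0.000152, as deposited 0.14), with the other sign as deposited. It fell again in GC-PB on both scales (-3.21 ± 0.18, adjusted p = 9.06e-12, as deposited -4.05). Siglecg (chromosome 7, 43408204 to 43418358), a related lectin with the same kind of inhibitory motif, was 10.1, 9.63 and 8.48 in the DZ libraries, 10.5, 11.7 and 11.8 in Fraction 3, 7.05, 6.92 and 6.11 in Fraction 2, 1.64, 1.65 and 2.06 in Fraction 1 and 0.975, 0.275 and 0.288 in GC-PB. Its Fraction 1 libraries all lay under the germinal centre libraries of the other gates. Siglecg fell in both steps (-1.47 ± 0.19, adjusted p = 3.87e-05, as deposited -0.36, then -0.91 ± 0.19, adjusted p = 0.000514, as deposited -1.52).

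Cd72 (chromosome 4, 43446462 to 43454628), a C-type lectin that also recruits SHP-1, was lowest among germinal centre groups in DZ. Its level was 2.23, 1.54 and 3.23 in the DZ libraries, 5.65, 9.78 and 6.39 in Fraction 3, 5.54, 5.15 and 3.66 in Fraction 2, 3.94, 2.55 and 2.92 in Fraction 1 and 0, 0 and 0.288 in GC-PB. The Fraction 3 libraries lay above those of DZ, and 2 of 3 GC-PB libraries were at 0. Cd72 rose from DZ to Fraction 3 (1.31 ± 0.24, adjusted p = 0.00817, as deposited 1.07) and fell from Fraction 1 to GC-PB (-1.91 ± 0.24, adjusted p = 1.76e-06, as deposited -2.67). Between these it was not called at equal totals (-0.50 and -0.48), whereas it was called higher in Fraction 1 than in Fraction 2 as deposited (0.69). Exons of Tesk1 overlap those of Cd72, and whether the counting used strand is not given in the sources used here. Tesk1 was 2.34 ± 0.3 in DZ, 2.16 ± 0.476 in Fraction 3 and 0.83 ± 0.813 in GC-PB.

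Fcrla (chromosome 1, 170917576 to 170927583) encodes a soluble Fc receptor-like protein that stays inside the cell and binds immunoglobulin. Its level was 13.6, 13.5 and 15.5 in the DZ libraries, 14.9, 12.5 and 14.2 in Fraction 3, 9.07, 7.56 and 9.31 in Fraction 2, 1.15, 3.3 and 3.26 in Fraction 1 and 24.4, 18.7 and 23.3 in GC-PB. Fraction 1 was the lowest group and GC-PB the highest, with no overlap with any other group on either side. Fcrla fell from Fraction 2 to Fraction 1 (-1.50 ± 0.20, adjusted p = 6.87e-05, as deposited -0.34) and rose in GC-PB on both scales (2.76 ± 0.20, adjusted p = 5.62e-10, as deposited 2.29), the largest rise among the members in that comparison. Fcgr2b (chromosome 1, 170958617 to 170976547), the inhibitory IgG receptor that recruits the lipid phosphatase SHIP-1, was 6.48, 5.01 and 8.68 in the DZ libraries, 8.88, 6.11 and 8.6 in Fraction 3, 8.73, 7.08 and 7.33 in Fraction 2, 2.46, 3.15 and 4.47 in Fraction 1 and 7.15, 4.12 and 9.51 in GC-PB. Its Fraction 1 and GC-PB libraries overlapped. Fcgr2b fell from Fraction 2 to Fraction 1 at equal totals (-1.02 ± 0.24, adjusted p = 0.00961, as deposited 0.19) and rose in GC-PB (0.83 ± 0.24, adjusted p = 0.00924, as deposited 0.27), neither of them called as deposited. Both calls were lost without Fraction 1 replicate 1, the first also without Fraction 2 replicate 1 and the second without GC-PB replicate 3, with changes over all single omissions of -1.20 to -0.87 and 0.59 to 1.11.

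**Figure D2:**
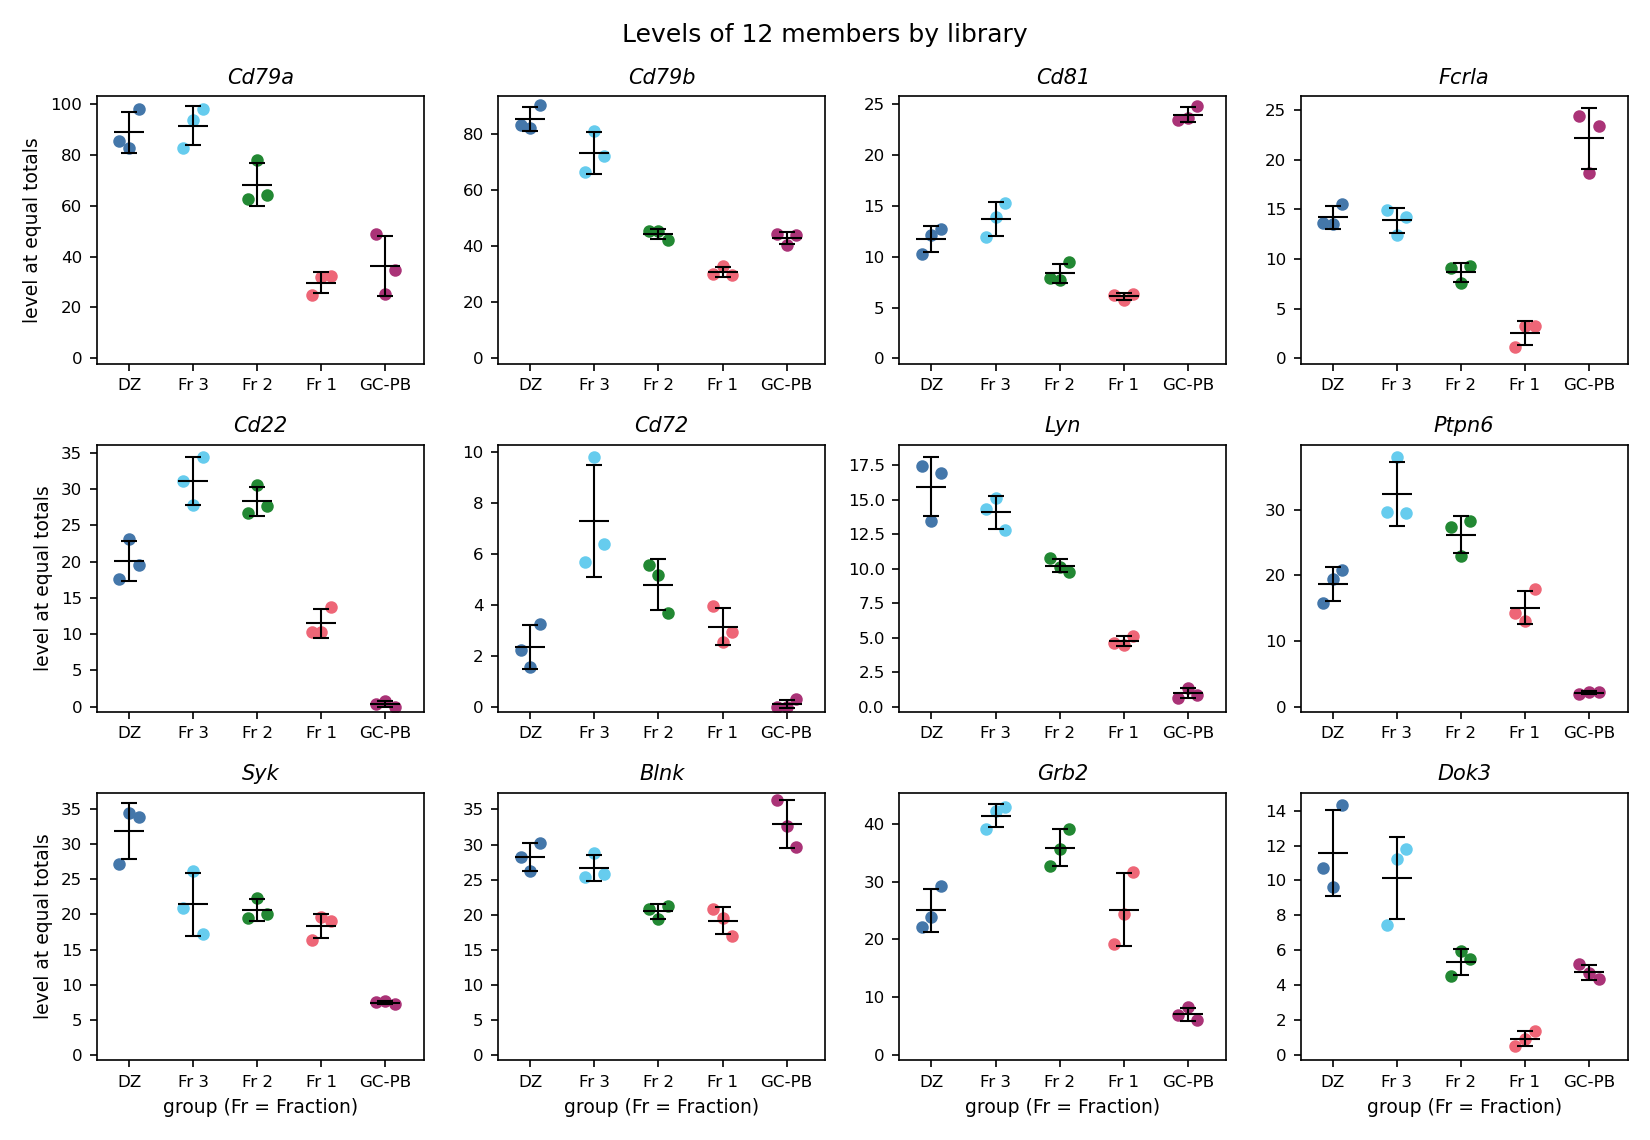
Points are the 3 libraries of each group for 12 members, at equal library totals on the vertical axis. Bars give the mean and SD, and Fr stands for Fraction. Cd22, Cd72, Lyn and Ptpn6 are near 0 in GC-PB, where Cd79b and Blnk stand above Fraction 1 and Cd81 and Fcrla above every other group.

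Among the kinases, phosphatases and lipid enzymes, at equal totals 4 of 9 fell from Fraction 2 to Fraction 1 and 5 of 9 from Fraction 1 to GC-PB, against 5.18% and 22.7% of all tested genes called lower. Lyn (chromosome 4, 3678115 to 3813122), the Src family kinase that phosphorylates both the activating chains and the inhibitory coreceptors, was 17.4, 13.5 and 17 in the DZ libraries, 14.3, 15.2 and 12.8 in Fraction 3, 10.7, 10.1 and 9.77 in Fraction 2, 4.6, 4.5 and 5.15 in Fraction 1 and 0.65, 1.37 and 0.864 in GC-PB. Its groups followed one another without overlap from Fraction 3 to GC-PB. Lyn fell from Fraction 2 to Fraction 1 at equal totals (-0.97 ± 0.16, adjusted p = 0.000633, as deposited 0.31), with the other sign as deposited. It fell in GC-PB on both scales (-1.57 ± 0.16, adjusted p = 9.99e-08, as deposited -2.26). Syk (chromosome 13, 52583173 to 52648792), the kinase that binds the phosphorylated chains, was 27.3, 34.5 and 33.9 in the DZ libraries, 21, 26.2 and 17.2 in Fraction 3, 19.5, 22.4 and 20.0 in Fraction 2, 16.4, 19.6 and 19.1 in Fraction 1 and 7.47, 7.7 and 7.2 in GC-PB. The Fraction 3, Fraction 2 and Fraction 1 libraries overlapped, DZ lay above them and GC-PB below. Syk was not called from Fraction 2 to Fraction 1 at equal totals but was called higher as deposited (-0.16 ± 0.14, adjusted p = 0.61, as deposited 1.23). Syk fell in GC-PB on both scales (-1.19 ± 0.14, adjusted p = 7.08e-07, as deposited -1.88). Btk (chromosome X, 134542336 to 134583570), the Tec family kinase downstream of SYK, had group means from 1.18 (Fraction 1) to 3.76 (Fraction 3) and was called in none of the 4 comparisons at equal totals or as deposited.

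Ptpn6 (chromosome 6, 124720707 to 124738714) encodes SHP-1, the phosphatase that CD22, CD72 and SIGLECG recruit. Its level was 15.9, 19.4 and 20.8 in the DZ libraries, 29.7, 38.1 and 29.5 in Fraction 3, 27.4, 23 and 28.2 in Fraction 2, 14.3, 13 and 17.9 in Fraction 1 and 1.95, 2.2 and 2.31 in GC-PB. Fraction 3 and Fraction 2 stood above DZ and Fraction 1, and each GC-PB library was under 3. Ptpn6 rose from DZ to Fraction 3 (0.76 ± 0.15, adjusted p = 0.012, as deposited 0.67) and fell to Fraction 1 at equal totals (-0.77 ± 0.15, adjusted p = 0.00226, as deposited 0.62) with the other sign as deposited. It fell in GC-PB on both scales (-2.34 ± 0.15, adjusted p = 6.01e-11, as deposited -3.07). Inpp5d (chromosome 1, 87620312 to 87720507), which encodes SHIP-1, the phosphatase recruited by FCGR2B, was 6.03, 8.09 and 6.66 in the DZ libraries, 9.29, 11.2 and 11.8 in Fraction 3, 8.73, 11.3 and 12.2 in Fraction 2, 3.94, 3.6 and 5.67 in Fraction 1 and 3.9, 2.75 and 2.88 in GC-PB. The Fraction 1 and GC-PB libraries lay under all others. It fell from Fraction 2 to Fraction 1 at equal totals (-1.13 ± 0.18, adjusted p = 0.000478, as deposited 0.14), with the other sign as deposited. It was called lower in GC-PB as deposited but not at equal totals (-0.36 ± 0.18, adjusted p = 0.138, as deposited -0.98).

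Prkcb (chromosome 7, 122288751 to 122634402), the protein kinase C that leads to NF-kB in B cells, was 16.3, 15.4 and 16.3 in the DZ libraries, 23.2, 22.5 and 20.5 in Fraction 3, 16.6, 18.7 and 15.9 in Fraction 2, 9.19, 9 and 11.9 in Fraction 1 and 0.975, 2.2 and 0 in GC-PB. GC-PB lay far below the other groups. Prkcb fell there (-2.57 ± 0.25, adjusted p = 5.04e-08, as deposited -3.36), and its change from Fraction 2 to Fraction 1 was not called (-0.72 ± 0.25, adjusted p = 0.0863, as deposited 0.64). Pik3cd, the catalytic subunit of PI3 kinase delta, was 5.97 ± 1.2 in Fraction 1 and 1.88 ± 1.38 in GC-PB, where it fell (-1.42 ± 0.28, adjusted p = 0.000367, as deposited -2.13). Its regulatory subunit gene Pik3r1 had group means from 1.07 (Fraction 1) to 2.98 (DZ) and was called in none of the comparisons at equal totals or as deposited, but higher in GC-PB with median ratios (0.78). Plcg2 (chromosome 8, 117498291 to 117635142), the phospholipase that makes the calcium signal, was 15, 16.2 and 15.9 in the DZ libraries, 19.4, 19.8 and 18.9 in Fraction 3, 15.5, 14 and 14.4 in Fraction 2, 7.55, 10.3 and 8.42 in Fraction 1 and 8.77, 10.4 and 9.8 in GC-PB. Its Fraction 1 and GC-PB libraries overlapped and lay under all others. Plcg2 fell from Fraction 2 to Fraction 1 at equal totals (-0.68 ± 0.13, adjusted p = 0.00185, as deposited 0.66), called with the other sign as deposited. In GC-PB it was not called at equal totals (0.13 ± 0.13, adjusted p = 0.468, as deposited -0.51), whereas it was called lower as deposited and higher with median ratios (0.40).

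Of the 8 tested adaptors and exchange factors, 5 fell from Fraction 2 to Fraction 1 at equal totals, against 5.18% of all tested genes, and in GC-PB 2 rose and 3 fell, against 14% and 22.7%. Blnk (chromosome 19, 40928927 to 40994535), the scaffold that joins SYK to BTK and phospholipase C gamma 2, was 28.2, 26.2 and 30.3 in the DZ libraries, 25.4, 28.8 and 25.8 in Fraction 3, 20.8, 19.3 and 21.2 in Fraction 2, 20.8, 19.5 and 17 in Fraction 1 and 36.4, 32.7 and 29.7 in GC-PB. Fraction 2 and Fraction 1 overlapped and lay under DZ and Fraction 3, and GC-PB lay above Fraction 1. At equal totals Blnk rose from Fraction 1 to GC-PB (0.75 ± 0.12, adjusted p = 2.05e-05, as deposited 0.08) and was not called there as deposited. From Fraction 2 to Fraction 1 it was called higher on the deposited scale alone (-0.10 ± 0.12, adjusted p = 0.737, as deposited 1.30). Grb2 (chromosome 11, 115644045 to 115708597), an adaptor that links receptors to RAS and also joins CD22 and DOK3, was 22.1, 23.9 and 29.3 in the DZ libraries, 39.2, 42.3 and 43 in Fraction 3, 32.8, 35.7 and 39.2 in Fraction 2, 19.2, 24.4 and 31.8 in Fraction 1 and 6.82, 8.25 and 6.05 in GC-PB. Its GC-PB libraries lay under all others. Grb2 rose from DZ to Fraction 3 (0.71 ± 0.15, adjusted p = 0.0256, as deposited 0.62) and fell to Fraction 1 at equal totals (-0.52 ± 0.15, adjusted p = 0.0389, as deposited 0.89) with the other sign as deposited. It fell in GC-PB on both scales (-1.68 ± 0.15, adjusted p = 1.63e-08, as deposited -2.38). The call in Fraction 1 was lost without any 1 library other than Fraction 1 replicate 3, and with median ratios (-0.41).

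Dok3 (chromosome 13, 55523231 to 55529296), an adaptor that works with SHIP-1 and GRB2 to restrain the receptor, was 10.7, 9.63 and 14.3 in the DZ libraries, 7.47, 11.2 and 11.8 in Fraction 3, 4.54, 5.95 and 5.5 in Fraction 2, 0.492, 0.9 and 1.37 in Fraction 1 and 5.2, 4.67 and 4.32 in GC-PB. Fraction 1 lay under every other group, and the GC-PB libraries overlapped those of Fraction 2. Dok3 fell to Fraction 1 (-1.74 ± 0.21, adjusted p = 1.57e-05, as deposited -0.82), the only member called lower there on the deposited scale too, and rose in GC-PB on both scales (1.60 ± 0.21, adjusted p = 2.12e-06, as deposited 1.30). Bank1 (chromosome 3, 136053363 to 136326066), a B cell scaffold that binds LYN and the calcium channels of the endoplasmic reticulum, was 6.93, 9.82 and 8.48 in the DZ libraries, 12.3, 10.3 and 9.58 in Fraction 3, 9.07, 8.04 and 7.79 in Fraction 2, 1.97, 3.15 and 2.23 in Fraction 1 and 0.975, 0.55 and 0.864 in GC-PB. Its GC-PB libraries lay under those of Fraction 1, and these under all others. It fell in both steps (-1.44 ± 0.19, adjusted p = 4.3e-05, as deposited -0.27, then -0.93 ± 0.19, adjusted p = 0.000353, as deposited -1.56). Gcsam (chromosome 16, 45610380 to 45622867), a germinal centre adaptor that binds SYK, was 24.8, 23.7 and 20.0 in the DZ libraries, 14.9, 10.02 and 11.3 in Fraction 3, 8.57, 9.65 and 9.01 in Fraction 2, 1.97, 4.05 and 2.06 in Fraction 1 and 0, 0.275 and 0 in GC-PB. Its groups followed one another without overlap from DZ to GC-PB. Gcsam fell from DZ to Fraction 3 (-0.88 ± 0.20, adjusted p = 0.0413, as deposited -0.90), from Fraction 2 to Fraction 1 (-1.49 ± 0.20, adjusted p = 7.59e-05, as deposited -0.31) and in GC-PB (-1.72 ± 0.20, adjusted p = 6.49e-07, as deposited -2.45).

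Rasgrp3, which activates RAS on diacylglycerol, fell from 16.3 ± 3.81 in Fraction 2 to 7.97 ± 1.78 in Fraction 1 at equal totals (-0.94 ± 0.21, adjusted p = 0.00543, as deposited 0.40), with the other sign as deposited. Vav1, the exchange factor that activates Rac downstream of SYK, had group means from 3.19 (GC-PB) to 8.82 (Fraction 3) and was called in none of the comparisons at equal totals. As deposited Vav1 was called higher in Fraction 1 than in Fraction 2 (0.75) and lower in GC-PB than in Fraction 1 (-0.90). Pik3ap1, the adaptor BCAP that brings PI3 kinase to the receptor, stayed under 1 in every library and was listed at 0 in the 3 GC-PB libraries, a difference from Fraction 1 that was called as deposited and not at equal totals. Among the distal genes, Itpr2 (chromosome 6, 146108299 to 146502223), a calcium channel of the endoplasmic reticulum, was 3.13, 3.27 and 4.24 in the DZ libraries, 5.45, 5.38 and 4.42 in Fraction 3, 3.7, 2.74 and 4.73 in Fraction 2, 0.821, 0.9 and 0.687 in Fraction 1 and 2.27, 3.02 and 2.02 in GC-PB. Fraction 1 lay under all other groups. Itpr2 fell from Fraction 2 to Fraction 1 (-1.37 ± 0.21, adjusted p = 0.000209, as deposited -0.49) and rose in GC-PB on both scales (0.92 ± 0.21, adjusted p = 0.00122, as deposited 0.61). Its relative Itpr1 had group means from 0.628 (DZ) to 1.72 (Fraction 2) and was called only in GC-PB vs Fraction 1 as deposited, where it was lower (-0.80). Bcl10, which links protein kinase C to NF-kB with MALT1, fell from 4.15 ± 0.268 in Fraction 1 to 2.16 ± 0.379 in GC-PB (-0.71 ± 0.18, adjusted p = 0.00322, as deposited -1.35). Nfatc1, a transcription factor that calcium brings to the nucleus, fell from 5.2 ± 0.635 to 2.29 ± 0.637 (-0.93 ± 0.19, adjusted p = 0.000586, as deposited -1.59). Malt1, the protease of the same complex as BCL10, had group means from 1.89 (GC-PB) to 4.83 (DZ) and was called in none at equal totals, but as deposited was called higher in Fraction 1 (0.76) and then lower in GC-PB (-0.68).

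**Figure D3:**
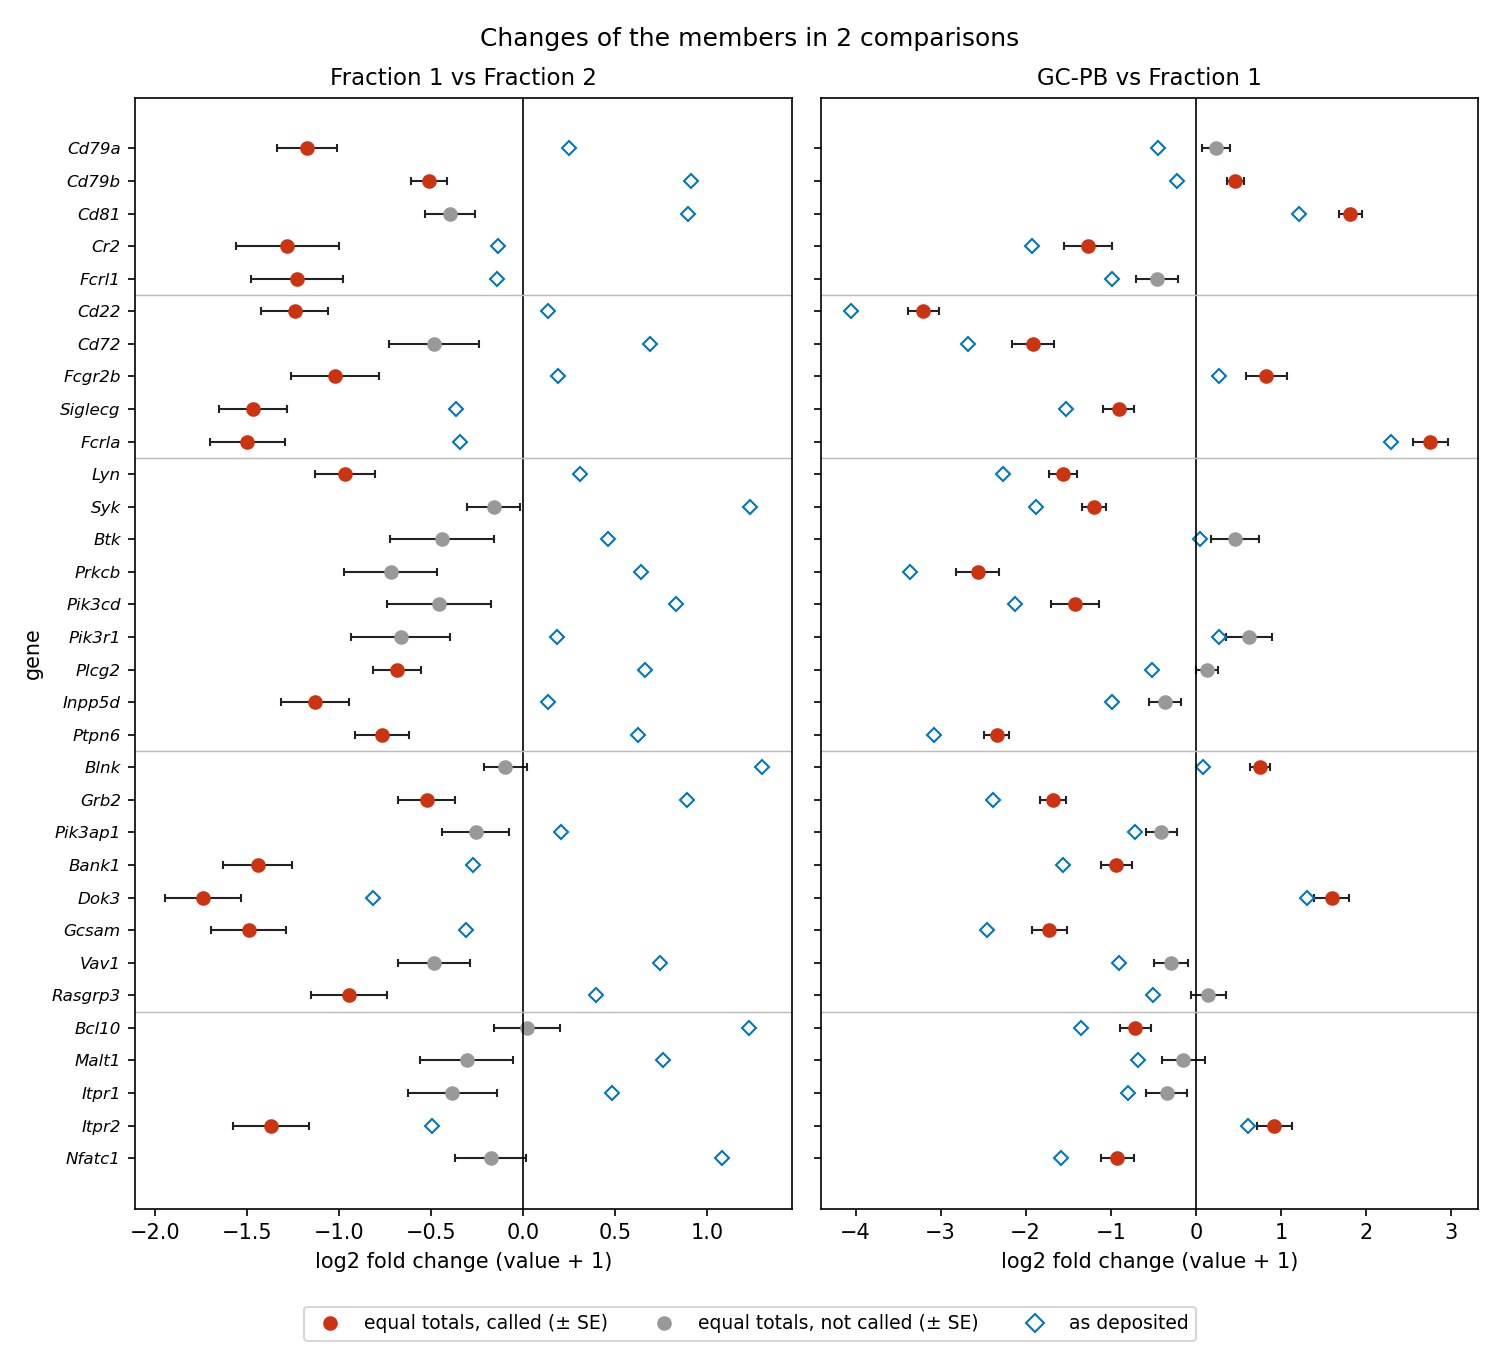
Horizontal positions are log2 fold changes of the 32 tested members for Fraction 1 less Fraction 2 (left) and GC-PB less Fraction 1 (right), at equal totals (circles, bars give SE, red where called) and as deposited (diamonds). On the left 18 members are called lower at equal totals while 24 diamonds lie right of 0 and 8 left of it, and on the right the called members fall into 14 lower and 7 higher.

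The 18 members that fell from Fraction 2 to Fraction 1 did not share a course afterwards. At equal totals 8 of them fell again in GC-PB (Cr2, Cd22, Siglecg, Lyn, Ptpn6, Grb2, Bank1 and Gcsam), 5 rose (Cd79b, Fcgr2b, Fcrla, Dok3 and Itpr2) and 5 were not called (Cd79a, Fcrl1, Plcg2, Inpp5d and Rasgrp3). Of all tested genes 22.7% were called lower and 14% higher in GC-PB than in Fraction 1. The same split was not made over all genes that fell to Fraction 1, so that it describes the members only. These comparisons share the Fraction 1 libraries, so that a low value there lowers the first change and raises the second. Of the 5 that rose, Fcrla lay in GC-PB above its range in the Bcl6-high groups, Fcgr2b and Dok3 overlapped libraries of Fraction 2, and Cd79b and Itpr2 also had a GC-PB library within the range of Fraction 2. At equal totals the 6 members called in none of the comparisons were Btk, Pik3r1, Pik3ap1, Vav1, Malt1 and Itpr1, of which the last 4 were called as deposited.

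The sums by role differed in which group was lowest, as the plot of summed levels shows, but a few abundant genes weigh most in them. The receptor and activating coreceptor genes summed to 199 ± 16 in Fraction 3, 133 ± 9.74 in Fraction 2, 70.7 ± 5.45 in Fraction 1 and 105 ± 11.9 in GC-PB. For the kinases, phosphatases and lipid enzymes the sums were 135 ± 12.1, 112 ± 1.45, 69.6 ± 6.12 and 30.4 ± 2.83 in the same groups. The adaptors and exchange factors summed to 132 ± 6.61, 102 ± 2.32, 62.8 ± 5.95 and 57.8 ± 2.91. In these sums GC-PB libraries lay above those of Fraction 1 for the receptor layer, below them for the enzymes and overlapping with them for the adaptors. Single genes differed from their layer. From Fraction 1 to GC-PB the mean of Cd81 went from 6.1 to 23.9 and that of Cd79b from 30.9 to 42.9, while Cr2 and Fcrl1 were lowest in GC-PB. Of the enzymes, Btk, Pik3r1 and Plcg2 were lowest in Fraction 1. Blnk alone was 32.9 of the adaptor sum in GC-PB. As deposited the sum was highest in Fraction 1 for each of the 5 roles. For the inhibitory coreceptors and Fcrla the sum was 22.3 ± 3.65 in Fraction 1 and 30.0 ± 5.32 in GC-PB, of which Fcrla alone was 22.1 and Fcgr2b 6.93 in GC-PB. These sums are descriptions and were not tested.

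**Figure D4:**
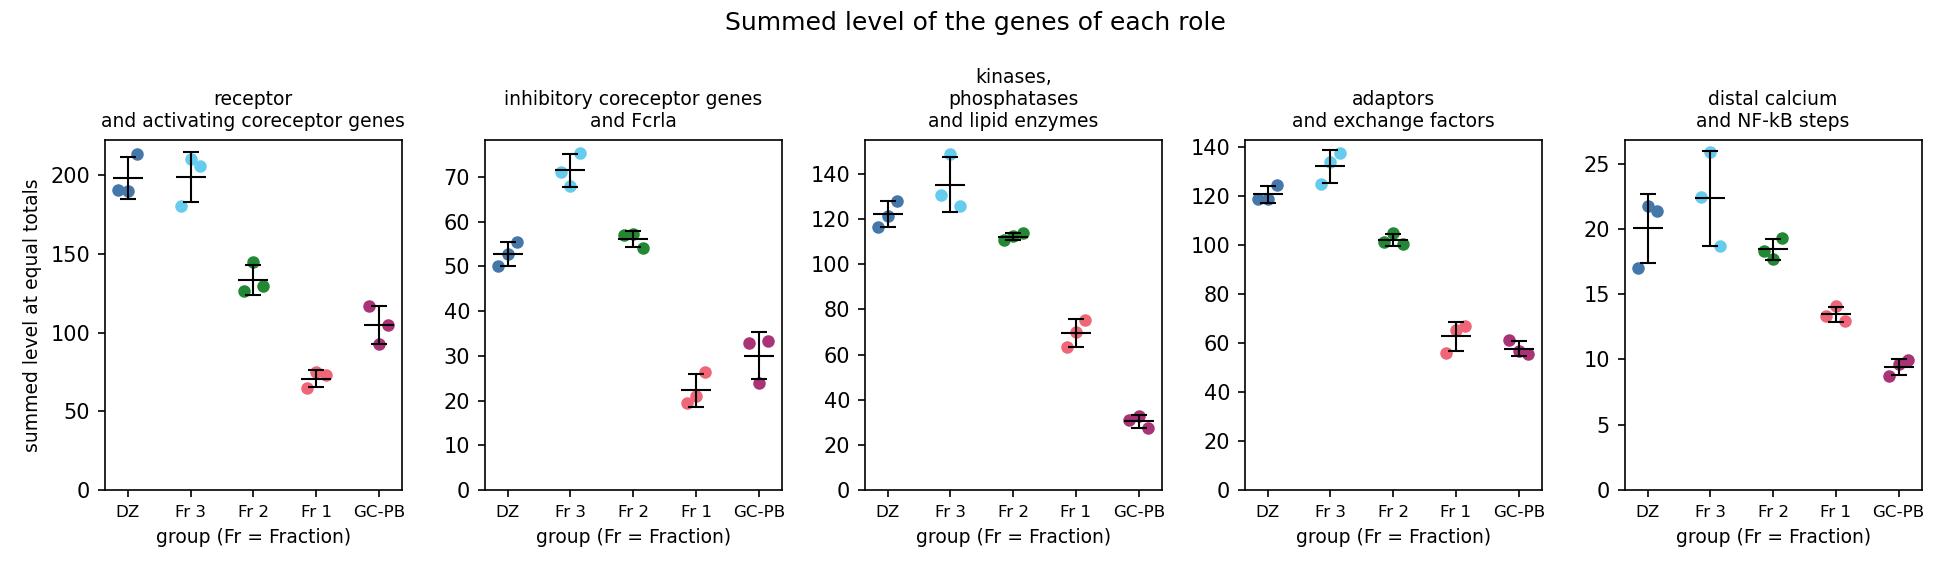
Points are the summed levels at equal totals of the genes of each role in each library, with bars for the mean and SD, and Fr stands for Fraction. The enzyme sum is lowest in GC-PB (30.4 on average), and the receptor sum is lowest in Fraction 1 (70.7 on average).

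A wider list of 105 other genes of the pathway, 93 of them tested, had smaller median changes at equal totals than the members in all 4 comparisons. From DZ to Fraction 3, 3 rose and 0 fell (limma, 4 lower at an unadjusted p under 0.05), or 3.23% and 0% of the list against 0.465% and 0.411% of all tested genes. From Fraction 3 to Fraction 2, 0 rose (2 at an unadjusted p under 0.05) and 1 fell, or 0% and 1.08% against 0.357% and 0.223%. From Fraction 2 to Fraction 1, 1 rose and 16 fell, or 1.08% and 17.2% of the list against 3.4% and 5.18% of all tested genes. From Fraction 1 to GC-PB 7 rose and 20 fell, or 7.53% and 21.5% against 14% and 22.7%. As deposited the last 2 comparisons had 52 higher and 0 lower (limma, 0 lower also at an unadjusted p under 0.05), and 6 higher and 52 lower. The 52 are 55.9% of the list, against 54.7% of all tested genes called higher in the first and 45.8% called lower in the second. The 6 called higher in the second are 6.45% of the list, against 11.2% of all tested genes. The median change of the list was -0.19 from Fraction 2 to Fraction 1 and -0.13 from Fraction 1 to GC-PB, nearer to that of all tested genes (-0.05 and -0.08) than the members' medians were.

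Hvcn1, a proton channel that associates with the receptor (1.05 ± 0.19, adjusted p = 0.00579, as deposited 0.94), Lat2, an adaptor of the plasma membrane (0.99 ± 0.19, adjusted p = 0.0113, as deposited 0.83), and Swap70 (0.58 ± 0.14, adjusted p = 0.0431, as deposited 0.49) were higher in Fraction 3 than in DZ at equal totals. As deposited 0 genes of the wider list were called in this comparison (limma, 7 higher and 2 lower at an unadjusted p under 0.05), beside 0.116% higher and 0.125% lower of all tested genes. With median ratios 2 of the list were called higher, beside 48 of all 11190 tested genes. From Fraction 2 to Fraction 1 Ptprc, which encodes the CD45 phosphatase that keeps Src kinases active, fell from 40.9 ± 1.04 to 18.1 ± 2.08 at equal totals (-1.14 ± 0.11, adjusted p = 1.53e-06, as deposited 0.26), with the other sign as deposited. Ets1 (-1.59, as deposited -0.29) fell on this scale too, as did Plekha2 (-0.91, as deposited 0.43), Arhgef1 (-0.99, as deposited 0.29) and Itpr3 (-1.07, as deposited 0.06), of which the last 3 have the other sign as deposited.

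In the plasmablasts Swap70 (-2.19, as deposited -2.91), Rac2 (-1.62, as deposited -2.32) and the Src family kinase gene Blk (-2.43, as deposited -3.24) fell on both scales. Pik3cg (chromosome 12, 32173473 to 32208659), the catalytic subunit of PI3 kinase gamma, which G protein coupled receptors activate, was 4.02, 4.62 and 5.65 in the DZ libraries, 3.63, 3.91 and 4.91 in Fraction 3, 1.68, 1.77 and 1.98 in Fraction 2, 1.31, 1.05 and 0.344 in Fraction 1 and 14, 10.7 and 11.5 in GC-PB. Every GC-PB library lay above all others. It rose from Fraction 1 (2.81 ± 0.21, adjusted p = 7.42e-10, as deposited 2.55), as did Pik3r5 (1.77 ± 0.16, adjusted p = 1.36e-08, as deposited 1.92), the regulatory subunit of the same enzyme, whereas Pik3cd fell. Pik3r5 was 0, 0 and 0.172 in Fraction 1 and 2.6, 3.3 and 2.02 in GC-PB. From Fraction 1 to GC-PB Ptprc went from 18.1 ± 2.08 to 16.8 ± 1.26 without a call at equal totals, whereas it was called lower as deposited (-0.77).

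In GC-PB vs Fraction 1, 20 of 21 called members kept their call without each of the 6 libraries in turn, Fcgr2b excepted, and in Fraction 1 vs Fraction 2 16 of 18 did, Grb2 and Fcgr2b excepted. The summed level of 7 germinal centre markers, Gcsam included, was also lower in Fraction 1 and GC-PB than elsewhere. It was 128 to 132 in DZ, 124 to 134 in Fraction 3, 95.6 to 108 in Fraction 2, 28.1 to 41.4 in Fraction 1 and 6.82 to 8.07 in GC-PB. Of the 7, only Fas overlapped between Fraction 2 (6.74 ± 2.19) and Fraction 1 (6.18 ± 0.991). From Fraction 1 to GC-PB the marker sum fell, whereas the members' sums overlapped (239 ± 19.9 and 232 ± 17.2). The markers' part in the result was not tested.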

How the data were processed

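RNA was measured in 15 libraries of 100 sorted cells, grouped by their titles. Per the labels' protocols, each tube received an equal quantity of ERCC spike-ins and molecular barcodes marked the cDNA, and TopHat2 and mm10 are named in the submitters' processing notes. The values the authors deposited are a signal per gene and library whose unit and scaling are not given in the sources used here. In each library 91% to 92.6% of its nonzero values were whole multiples of 1 constant, too few for a count test.

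Each library was scaled to the mean total of 53845, with the ribosomal precursor Rn45s (3.31% to 9.97% of the total, highest in GC-PB) left out. Genes detected in 3 or more libraries (11190) entered a single linear model of log2(value + 1) with a mean for each of the 5 groups (limma 3.58.1, R 4.3.3, variance prior with a trend on mean level), and p-values were adjusted over all of these genes. On simulated data the method recovered 30% to 37% of 2-fold and 90% or 91% of 4-fold changes over the 4 comparisons. The simulation changed only genes above a minimum mean level and assumed the spread between libraries. Recovery for the members with lower levels is therefore not known. Every member is accounted for, with changes for those called, and the 6 called genes with the smallest p per comparison and Ptprc are named from the wider list, of which some genes are not reported here. The members and lists were chosen with earlier results of these data known. Positions are from GENCODE M21 on mm10 and promoters from RefSeq. Figures were drawn with Python 3.11.15 and matplotlib 3.10.9.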

Additional observations from a re-analysis of the deposited data

How the results depend on the processing

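Over 10 settings other than the deposited scale and the omission of single libraries, 396 of 421 values of the 46 calls of members kept their sign and side of the threshold, 25 lost the call and 0 changed sign. On the deposited scale the counts of members called higher and lower were 0 and 0 in Fraction 3 vs DZ, 0 lower in Fraction 2 vs Fraction 3, 13 and 1 in Fraction 1 vs Fraction 2, and 4 and 22 in GC-PB vs Fraction 1. In Fraction 1 vs Fraction 2 these changes had the other sign there: Cd79a 0.25, Cd79b 0.91, Cd22 0.14, Fcgr2b 0.19, Lyn 0.31, Plcg2 0.66, Inpp5d 0.14, Ptpn6 0.62, Grb2 0.89, Rasgrp3 0.40, Ptprc 0.26, Plekha2 0.43, Arhgef1 0.29 and Itpr3 0.0637. In GC-PB vs Fraction 1 the same held for Cd79b at -0.22. The 2 scales differ only by the factor that brings each library to equal totals. It was 1.34 to 1.45 in Fraction 2, 0.491 to 0.521 in Fraction 1 and 0.771 to 0.913 in GC-PB. Why the totals differ was not tested.

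In Fraction 3 vs DZ the count called higher was 2 with no intensity trend and 0 with only the 6 libraries compared. The count called lower was 0 with a pseudocount of 0.5, with genes above 0 in at least 1 library, with no intensity trend or with only the 6 libraries compared, and 2 with a mean of at least 1. In Fraction 2 vs Fraction 3 the count called lower was 1 with no intensity trend and 0 with only the 6 libraries compared, where fewer samples estimate the spread. Leaving out single libraries gave 0 to 3 higher and 0 to 1 lower in Fraction 3 vs DZ, 0 higher and 1 to 2 lower in Fraction 2 vs Fraction 3, 0 higher and 16 to 18 lower in Fraction 1 vs Fraction 2, and 6 to 8 higher and 14 to 15 lower in GC-PB vs Fraction 1. With the replicate block the count called lower in Fraction 3 vs DZ was 0 (Gcsam lost its call), and the other counts of member calls stayed at 4, 0, 2, 0, 18, 7 and 14. The replicate numbers do not pair the libraries: deviations of same-numbered libraries correlated by -0.0376 to 0.0367 over 30 pairs, and 5 of 15 libraries correlated best with their own number. A fit of the 9 DZ, Fraction 3 and Fraction 2 libraries alone, chosen after the data were seen, lost Cd72 in Fraction 3 vs DZ (3 higher and 1 lower called) and Cd81 in Fraction 2 vs Fraction 3, where another member was called in its place (2 lower). Small steps limit Pik3ap1, Vav2 and Itpr1, for which only large differences could have been seen.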

Other observations

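Ratios of 2 members within a library do not depend on how libraries are scaled, and 4 of them, chosen after the values were seen, are given as a description. Cd22 to Cd79b was 0.212, 0.281 and 0.217 in the DZ libraries, 0.468, 0.343 and 0.478 in Fraction 3, 0.587, 0.676 and 0.653 in Fraction 2, 0.344, 0.315 and 0.462 in Fraction 1 and 0.00735, 0.0203 and 0 in GC-PB. Cd22 was thus highest against Cd79b in Fraction 2 and lowest in GC-PB, with no overlap between these. Its ratio to Cd79a, the gene of the other chain, is not given, so that this order holds for Cd79b only. Ptpn6 to Syk was 0.582, 0.564 and 0.613 in DZ, 1.41, 1.46 and 1.71 in Fraction 3, 1.41, 1.03 and 1.41 in Fraction 2, 0.87, 0.664 and 0.937 in Fraction 1 and 0.261, 0.286 and 0.32 in GC-PB. The phosphatase gene was high against the kinase gene in both Bcl6-high light zone groups and low in DZ and GC-PB. Lyn to Syk was 0.552, 0.453 and 0.489 in Fraction 2, 0.28, 0.229 and 0.27 in Fraction 1 and 0.087, 0.179 and 0.12 in GC-PB, without overlap among these groups. For this ratio DZ (0.639, 0.391 and 0.5) overlapped Fraction 2, and Fraction 3 (0.683, 0.579 and 0.743) lay above Fraction 2. Dok3 to Blnk was 0.381, 0.368 and 0.473 in DZ, 0.294, 0.39 and 0.457 in Fraction 3, 0.218, 0.308 and 0.259 in Fraction 2, 0.0236, 0.0462 and 0.0808 in Fraction 1 and 0.143, 0.143 and 0.146 in GC-PB. Fraction 1 was the lowest group here, unlike in the other ratios, where GC-PB was.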
